A study of Mus musculus with 21 samples.

Results

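*Zfand3*, *Btbd9*, *Glo1* and *Dnah8* are 4 protein-coding genes that follow one another on mouse chromosome 17, and they were taken by symbol from 55487 genes counted in lymph nodes and in skin. They were selected on the difference of *Glo1* between *Ifnk* TG and WT lymph nodes in these same libraries and on their position beside it, so the comparisons of *Ifnk* TG with WT samples are given for them as a description, with no p-value. The study compared mice that overexpress *Ifnk*, the type I interferon made by keratinocytes, with WT mice, in inguinal lymph nodes with and without ultraviolet B (UVB) light and in skin with and without lesions. The node libraries came from 12-week-old mice in 4 groups of 3: WT without UVB, *Ifnk* TG without UVB, WT after UVB and *Ifnk* TG after UVB. The UVB dose was 250 mJ/cm2 on 3 days of each of 2 weeks, and nodes were taken after another 2 weeks. The skin libraries came from 12-month-old mice, with 3 of WT skin, 2 of nonlesional (NL) and 4 of lesional (L) *Ifnk* TG skin, none of it irradiated. The transgene is driven by the keratin 14 promoter and therefore targets basal keratinocytes. It was made on C57Bl/6 and backcrossed to BALB/c over several generations, and the WT mice were BALB/c. Whether TG and WT mice were littermates is not given in the sources used here. The transgene and DNA of the founder strain near it or elsewhere therefore cannot be told apart in any comparison of TG with WT mice. Sex, body site and the mouse behind each library are not given in the sources used here. The libraries within a group are taken as separate samples, and p-values measure only the spread between them.

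*Glo1* encodes glyoxalase I, which converts the adduct that methylglyoxal, a reactive by-product of glycolysis, forms with glutathione into S-lactoylglutathione. Glyoxalase II, encoded by *Hagh*, then releases lactate and returns the glutathione. *Btbd9* encodes a BTB-domain adaptor for the Cul3 ubiquitin ligase, *Zfand3* an AN1-type zinc finger protein, and *Dnah8* a heavy chain of axonemal dynein, the motor of cilia and of the sperm tail. Among inbred mouse strains this stretch of chromosome 17 is known for a duplication that takes in *Glo1* and differs between strains. DNA copy number was not measured in these samples.

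In the GRCm38 annotation (GENCODE M21) the genes run in the order *Zfand3* (ENSMUSG00000044477, chr17:30004733-30210828, plus strand), *Btbd9* (ENSMUSG00000062202, chr17:30215524-30576488, minus strand), *Glo1* (ENSMUSG00000024026, chr17:30584936-30626871, minus strand) and *Dnah8* (ENSMUSG00000033826, chr17:30624354-30877365, plus strand). The annotated spans of *Glo1* and *Dnah8* overlap by 2518 bases, and the lncRNA *1700097N02Rik* lies across the same stretch on the minus strand. Overlap of their exons was not measured. The RefSeq starts of *Glo1* and *Dnah8* are 14.3 kb apart and point away from each other. The sources used here do not say whether the counting used strand, so reads from the overlap could have gone to either gene.

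The 250 bases before the RefSeq start (GRCm38.p6, the C57BL/6J reference) are shown for *Zfand3*, *Glo1* and *Dnah8*, because the comparisons turn on whether these adjoining genes moved together. *Btbd9* had no entry in the sequence table. They are written 5′ to 3′ on the strand of each gene, with capitals for a GC box (GGGCGG) or a CCAAT box (CCAAT) on either strand. The windows are chr17:30004789-30005038 for *Zfand3*, chr17:30612660-30612909 for *Glo1* and chr17:30626686-30626935 for *Dnah8*.
Zfand3: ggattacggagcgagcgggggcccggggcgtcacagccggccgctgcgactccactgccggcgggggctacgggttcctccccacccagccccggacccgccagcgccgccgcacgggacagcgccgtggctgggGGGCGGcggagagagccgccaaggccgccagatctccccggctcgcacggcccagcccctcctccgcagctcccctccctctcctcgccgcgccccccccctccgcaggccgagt
Glo1: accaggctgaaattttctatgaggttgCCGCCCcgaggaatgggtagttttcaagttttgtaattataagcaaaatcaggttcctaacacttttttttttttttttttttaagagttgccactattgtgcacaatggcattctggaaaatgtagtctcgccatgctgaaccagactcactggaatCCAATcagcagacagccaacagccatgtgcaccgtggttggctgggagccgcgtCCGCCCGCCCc
Dnah8: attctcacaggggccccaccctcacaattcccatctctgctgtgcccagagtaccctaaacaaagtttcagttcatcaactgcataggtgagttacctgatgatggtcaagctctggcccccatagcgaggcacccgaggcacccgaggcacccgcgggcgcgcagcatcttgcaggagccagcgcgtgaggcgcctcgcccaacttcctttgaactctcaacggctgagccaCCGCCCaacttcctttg
*Glo1* had 3 matches to the GC box, at -223, -11 and -7 from its start with the last pair overlapping, and 1 CCAAT box at -65. *Zfand3* had 1 GC box at -115 and *Dnah8* 1 at -17. A GC box was present in 32.7% and a CCAAT box in 33.9% of all 32851 windows of this length. The *Zfand3* window was 79.2% G or C with 32 CG dinucleotides, that of *Dnah8* 59.2% with 13, and that of *Glo1* 46.4% with 8. An interferon-stimulated response element (GAAA repeated after a gap of any 2 bases), a gamma-activated site (TTCNNNGAA) and an antioxidant response element (TGACNNNGC) were looked for on both strands, and these letters were in none of the 3 windows. They were in 2.98%, 7.02% and 10.2% of all windows.

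Node libraries held 27599809 to 36428435 counts and skin libraries 40499078 to 56511276, and all 4 genes passed the filter on low counts in both tissues, among 16173 tested node genes and 19101 tested skin genes. A floor of 3 counts is at most 1.09e-05% of a library, which covers counting error only. Levels are given as CPM, counts scaled to a common library total after TMM scaling, and differences as log2 fold changes from edgeR's quasi-likelihood fit with their standard errors (SE). B and T cell markers summed to 1050 to 2020 and 1160 to 1580 CPM in nodes, and keratinocyte markers to 9590 to 25300 CPM in skin. *Ifnk* had 0 counts in all 12 node libraries and all 3 WT skin libraries, 6 and 0 in NL skin and 5 to 14 in L skin, so in nodes the genotype is taken from the labels alone. L skin stood apart in its makeup. Its 5 hair shaft markers summed to 1040 to 3280 CPM against 0.0495 to 0.466 in the other 5 skin libraries, and its 5 skeletal muscle markers to 15.9 to 5620 CPM against 20600 to 29600. These markers move with every comparison of L skin, and their part in those results was not tested. Without muscle, fat, hair shaft and *Krtap* genes in the fit, the same number of the 4 genes was called between L and NL skin. Each of the 4 genes keeps its own counts in that fit, so it cannot tell what these cell types contributed. In whole tissue, fewer cells that express a gene and less RNA of it per cell cannot be told apart.

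*Glo1* was higher in *Ifnk* TG nodes than in WT nodes at both settings of UVB. Without UVB it was at 72.8, 75.8 and 79.6 CPM in WT nodes and at 95.5, 109 and 104 CPM in TG nodes. After UVB it was at 65.1, 75.8 and 74.7 CPM in WT nodes and at 99.3, 96.3 and 98.6 CPM in TG nodes. The lowest of the 6 TG libraries lay above the highest of the 6 WT libraries. TG nodes had 1.35 times the WT level without UVB (log2 fold change 0.43, SE 0.08) and 1.37 times after it (0.45, SE 0.08). By mean and SD the order was TG without UVB (103 ± 6.96 CPM, n = 3), TG after UVB (98.1 ± 1.59), WT without UVB (76.1 ± 3.41) and WT after UVB (71.8 ± 5.89). Neighbours in this order within a genotype differed by less than their spread, and the gap between the genotypes exceeded it. These are the values that the genes were chosen for. Of all tested genes, 16, or 0.0989%, were higher in every TG than in every WT node library, and *Glo1* had the widest gap among them. The others included *Mgst1*, *Acaa1b*, *Grhpr* and *Glo1-ps*, and those 4 were named after their values were seen.

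**Figure D1:**
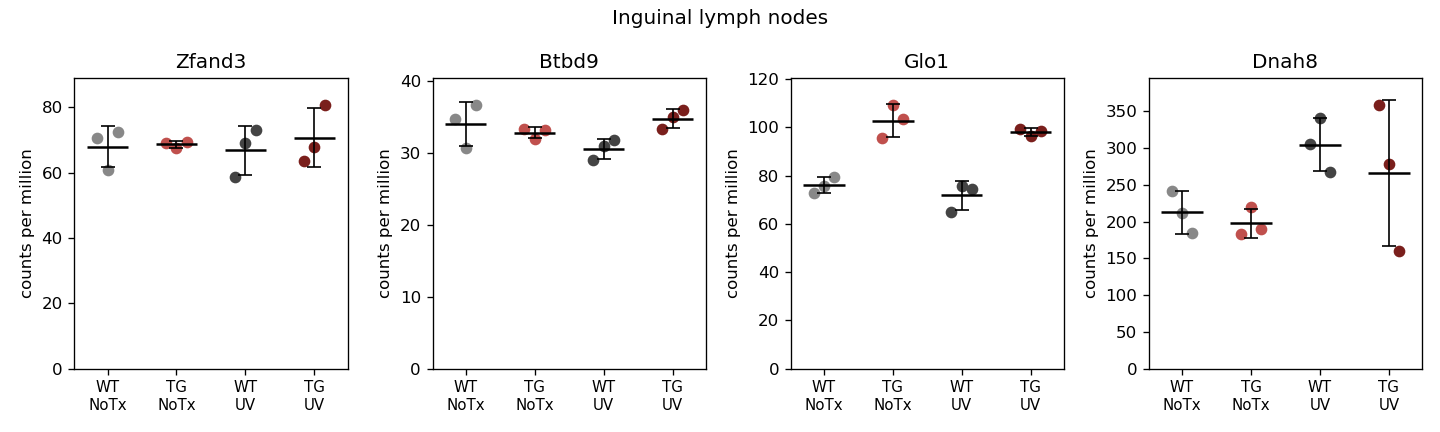
CPM of the 4 genes in each node library (points) by group, with the group mean (horizontal line) and SD (bars), 3 libraries a group, axes from 0. The 6 TG libraries of *Glo1* sit between 95.5 and 109 CPM and the 6 WT libraries between 65.1 and 79.6. Each other gene overlaps between the 6 TG and the 6 WT libraries. After UVB alone, *Btbd9* was at 33.3 to 35.9 CPM in TG and 29 to 31.7 CPM in WT nodes.

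*Zfand3*, *Btbd9* and *Dnah8* had smaller differences between genotypes, of both signs. *Zfand3* ranged from 58.5 to 72.9 CPM over the 6 WT and from 63.6 to 80.7 CPM over the 6 TG node libraries, with log2 fold changes of 0.02 (SE 0.11) without UVB and 0.08 (SE 0.11) after it. *Btbd9* was at 34.7, 30.7 and 36.7 CPM in WT and 33.3, 31.9 and 33.2 CPM in TG nodes without UVB, and at 29, 30.9 and 31.7 CPM in WT and 33.3, 35 and 35.9 CPM in TG nodes after UVB. The log2 fold change of *Btbd9* was -0.05 (SE 0.09) without UVB and 0.19 (SE 0.09) after it. *Dnah8*, whose annotated span overlaps that of *Glo1*, was at 242, 211 and 184 CPM in WT nodes without UVB. In TG nodes without UVB it was at 183, 220 and 189 CPM, with a log2 fold change of -0.10 (SE 0.23). Across the 12 nodes the correlation of log2 CPM with *Glo1* was 0.43 for *Btbd9*, 0.31 for *Zfand3* and -0.33 for *Dnah8*, described over libraries that share 2 genotypes and 2 treatments.

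Over all genes edgeR called none between TG and WT nodes, 0% of 16173 without UVB and 0% after UVB. With an unadjusted p under 0.05 there were 549 genes (3.39%) and 1131 (6.99%), and DESeq2 called 2 and 19. Nothing is read from these counts for the 4 genes, which were picked on this contrast.

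The other genes within 1 Mb on each side were not among those selected, and they were tested. Of 45 other genes tested there in nodes, edgeR called 0 without UVB and 0 after UVB, and DESeq2 called 0 in both. Without adjustment 3 of the 45 (6.67%) had a p under 0.05 without UVB and 5 (11.1%) after it, against 3.39% and 6.99% of all genes. The median log2 fold change of the 45 was 0.04 without UVB and -0.04 after it. The nearest tested genes outside the stretch, *Mdga1* and *Glp1r*, were under 0.4 CPM in every node library. Within the stretch, *Gm50244*, annotated on the plus strand within the last exon of a long *Glo1* isoform and named after its values were seen, was at 0.0921 to 0.332 CPM in WT and 0.426 to 0.784 CPM in TG nodes without UVB (log2 fold change 1.53, SE 0.60, adjusted p = 1 in edgeR). The genotypes overlapped after UVB. Without strand its reads and those of *Glo1* cannot be told apart. *1700097N02Rik* went the other way without UVB, at 3.38 to 4.5 CPM in WT and 1.99 to 3.29 CPM in TG nodes (log2 fold change -0.59, SE 0.33, adjusted p = 1).

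**Figure D2:**
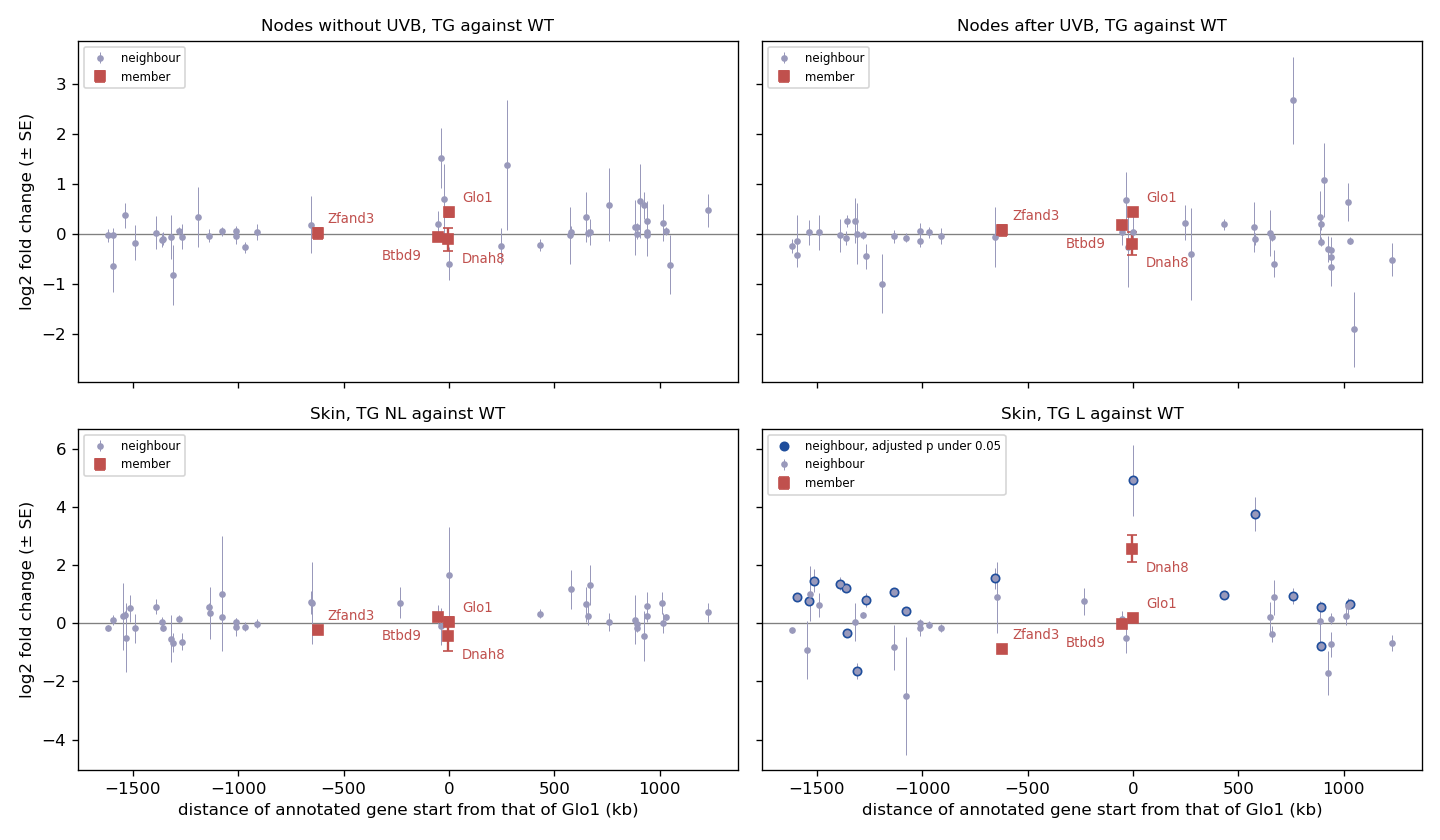
Log2 fold change with SE (vertical axis) of every tested gene within 1 Mb of the 4 genes, against the distance of its annotated start from that of *Glo1* in kb (horizontal axis), for nodes without and after UVB and for NL and L skin, each TG against WT. Squares are the 4 genes, dots the neighbours, filled blue those with an adjusted p under 0.05, which are 18 in L skin and 0 in the other panels. In nodes *Glo1* sits at 0.43 and 0.45 with *Btbd9*, *Dnah8* and *Zfand3* between -0.19 and 0.19.

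A pseudogene of *Glo1* on another chromosome was also higher in TG nodes, given without a test. *Glo1-ps* (ENSMUSG00000075391, chr2:35340409-35340963, plus strand) is annotated as its processed pseudogene, and how alike the sequences are was not measured here, so whether the counting split reads between them was not tested. *Glo1-ps* was at 8.03 to 10.4 CPM in the 6 WT and 11.6 to 13.8 CPM in the 6 TG nodes, with log2 fold changes of 0.44 (SE 0.13) without UVB and 0.56 (SE 0.13) after it. It took 9.57% to 12.6% of the joint count in every node library, in TG and WT alike. Summed, the pair reached 83.2 to 89.7 CPM in WT and 109 to 122 CPM in TG nodes without UVB, and 73.3 to 84.7 against 108 to 113 CPM after UVB.

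Erythroid marker sums were mostly higher in TG nodes and lower after UVB. The sum of 5 globin and heme synthesis genes, all detected, was 121 to 261 CPM in WT and 261 to 303 CPM in TG nodes without UVB, and 10.8 to 39.5 CPM in WT and 26.1 to 159 CPM in TG nodes after UVB. B cell, T cell and myeloid marker sums overlapped between genotypes, apart from the T cell sum without UVB, which was 1330 to 1460 CPM in TG and 1490 to 1580 CPM in WT nodes. The part of erythroid and T cell content in the level of *Glo1* was not tested.

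**Figure D3:**
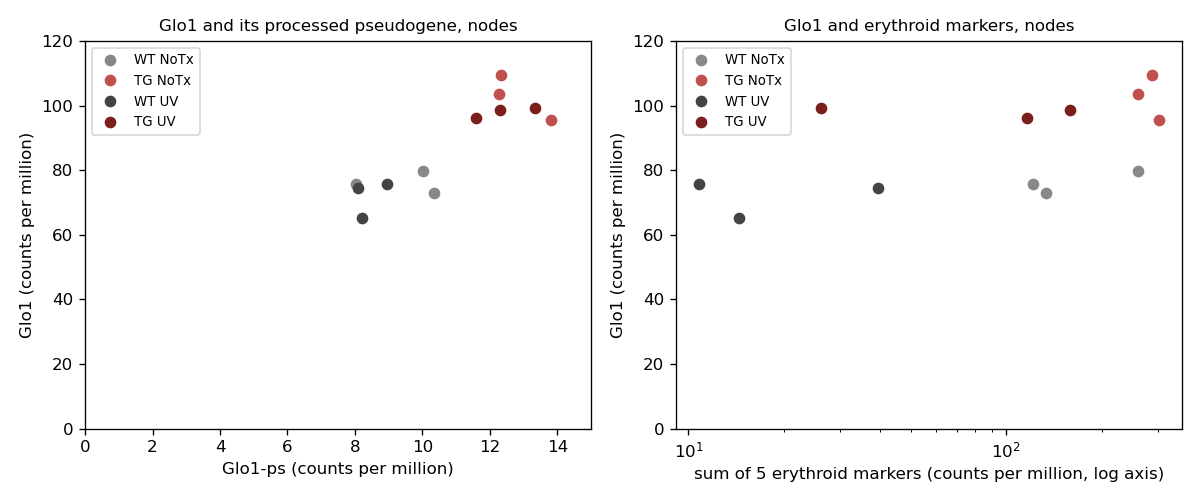
*Glo1* (vertical axis, CPM, from 0) in the 12 node libraries against *Glo1-ps* on the left and against the sum of 5 erythroid markers on a log axis on the right, coloured by group. TG libraries lie above WT libraries on both sides, at *Glo1-ps* levels of 11.6 to 13.8 against 8.03 to 10.4 CPM, and at erythroid sums that overlap between the genotypes.

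The 5 tested genes whose log2 CPM followed *Glo1* most closely over the 12 nodes were *Cbr2* (Pearson r 0.91), *Glo1-ps* (0.87), *Aldh1a1* (0.84), *Pdgfc* (0.83) and *Gnaq* (0.82). *Cbr2*, *Aldh1a1* and *Pdgfc* averaged 1.35, 0.186 and 0.805 CPM. Over the 9 skin libraries they were *Tbl1xr1* (0.96), *Tmsb4x* (0.95), *Ifi27l2b* (0.94), *Vamp4* (0.93) and *Galnt7* (0.93), with *Glo1-ps* at 0.14. No gene was among the closest 5 in both tissues. In nodes *Glo1* was at 95.5 to 109 CPM in TG and 65.1 to 79.6 CPM in WT libraries. The node ranking therefore draws on the genotype difference that the genes were chosen for.

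UVB within a genotype was not the contrast that the genes were chosen on, and it left *Glo1* close to its level. The log2 fold change from no UVB to UVB was -0.08 in WT nodes (SE 0.08, 95% interval -0.26 to 0.09, adjusted p = 0.552 from edgeR) and -0.07 in TG nodes (SE 0.08, -0.24 to 0.11, adjusted p = 0.839). The difference of these responses was 0.01 (SE 0.12, -0.23 to 0.26, adjusted p = 0.988), so that changes outside 0.85-fold to 1.2-fold lay outside the interval. This difference draws on the TG and WT values that the genes were chosen for, so it is not independent of that choice. *Zfand3* had log2 fold changes of -0.02 in WT (adjusted p = 0.918) and 0.04 in TG nodes (adjusted p = 0.94). *Btbd9* had -0.16 in WT (adjusted p = 0.269) and 0.08 in TG nodes (adjusted p = 0.809), with a difference of 0.24 (SE 0.12, adjusted p = 0.848).

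*Dnah8* had the largest values under UVB of the 4 genes. Its level was 184 to 242 CPM without and 268, 305 and 340 CPM with UVB in WT nodes, and 183 to 220 CPM without and 359, 279 and 161 CPM with UVB in TG nodes. All irradiated WT libraries lay above the unirradiated ones, and in TG nodes replicate 12 lay below them. The log2 fold change was 0.52 in WT (SE 0.23, 95% interval 0.01 to 1.02, adjusted p = 0.179) and 0.43 in TG nodes (SE 0.23, -0.08 to 0.93, adjusted p = 0.596), and the responses differed by -0.09 (SE 0.33, adjusted p = 0.968). TG replicate 12 after UVB stood apart more widely. Without it edgeR called 2644 genes in WT nodes, where it called 805 with it, and 236 in TG nodes, where it called 0. *Dnah8* then passed the threshold in WT (0.50, adjusted p = 0.0207) and in TG nodes (0.67, adjusted p = 0.0398). These were the lowest adjusted p-values for *Dnah8* among the 12 edgeR fits with 1 library left out. In other such fits its adjusted p reached 0.427 in WT and 0.905 in TG nodes. Its log2 fold change went down to 0.40 in WT and 0.15 in TG nodes. T cell markers summed to 1490 to 1580 CPM in WT nodes without UVB and 1160 to 1270 CPM after it, and their part in the level of *Dnah8* was not tested.

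None of the 4 genes passed the threshold for UVB in WT nodes, where 4.98% of all tested genes did, nor in TG nodes (0% of all genes, 1507 at an unadjusted p under 0.05 and 137 by DESeq2), nor for the difference between genotypes (0%, 881 unadjusted and 8 by DESeq2). DESeq2 called 0 of the 4 in each. Of the 45 neighbours, edgeR called 0 for UVB in WT nodes, 10 of them having an unadjusted p under 0.05, and 0 in TG nodes, where 5 did.

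Among axonemal dynein heavy chains *Dnah8* had by far the most counts in nodes. Of 14 other axonemal dynein heavy chains the highest was *Dnah17*, at up to 8.07 CPM in a node library, and 9 of the 14 did not pass the filter, while *Dnah8* reached 359 CPM. Markers of germ or ciliated cells, with *Foxj1* and *Tekt1* among the 5, summed to at most 0.592 CPM, and 1 of the 5 was at 0 throughout. Per kb of its shortest principal transcript *Dnah8* averaged 16.8 CPM over the nodes, near *Btbd9* (17) and *Zfand3* (22.5) and below *Glo1* (97.4). With all annotated exons as the length, *Zfand3* led at 15.6 CPM per kb, ahead of *Dnah8* (9.13), *Glo1* (7.21) and *Btbd9* (1.81), so the order of levels between the genes depends on the isoforms that were present.

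In skin *Glo1* did not separate the groups. It was at 99.3, 103 and 100 CPM in WT, 108 and 102 CPM in NL and 138, 120, 112 and 88.6 CPM in L skin. The L libraries spread on both sides of all the others, L replicate 7 lowest. The log2 fold change from WT was 0.06 in NL (SE 0.16) and 0.18 in L skin (SE 0.14), and between L and NL skin it was 0.12 (SE 0.16, 95% interval -0.24 to 0.48, adjusted p = 0.612 from edgeR). The 95% interval of the ratio to WT was 0.913 to 1.41 in L and 0.806 to 1.35 in NL skin. The nodes and the skin were normalized separately and differ in age, so the size of the difference was not compared between them. Keratinocyte markers, at 9590 CPM, were also lowest of all 9 libraries in L replicate 7, and their part in the level of *Glo1* was not tested. *Glo1-ps* was at 9.13 to 9.62 CPM in WT, 8.43 and 9.39 CPM in NL and 10.7 to 11.6 CPM in L skin.

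**Figure D4:**
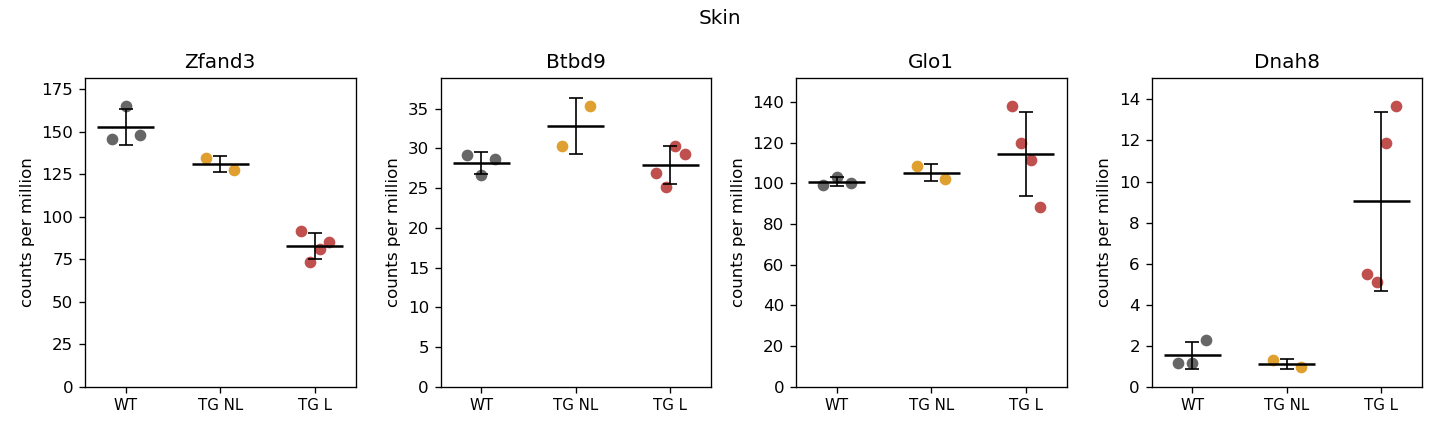
CPM of the 4 genes in each skin library (points) by group, with the group mean (horizontal line) and SD (bars), for 3 WT, 2 NL and 4 L libraries, axes from 0. *Zfand3* falls from 145 to 165 CPM in WT to 73.1 to 91.4 CPM in L skin, *Dnah8* is at 5.08 to 13.7 CPM in L and at most 2.28 CPM elsewhere, and *Glo1* and *Btbd9* overlap between L and WT.

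*Zfand3* was lower in L skin. It was at 145, 165 and 148 CPM in WT, 134 and 128 CPM in NL and 91.4, 73.1, 80.9 and 85.2 CPM in L skin. L skin had 0.631 times the NL level (log2 fold change -0.66, SE 0.11, 95% interval -0.92 to -0.41, adjusted p = 0.00443 from edgeR). Against WT skin, given as a description, the ratio was 0.541 for L (-0.89, SE 0.10) and 0.857 for NL skin (-0.22, SE 0.12). With muscle, fat, hair shaft and *Krtap* genes left out, the log2 fold change between L and NL skin was -0.66 with an adjusted p = 0.00451. That fit leaves the counts of *Zfand3* as they were. Within L skin the order of *Zfand3* was that of the summed muscle markers. It was at 73.1 CPM with 15.9 CPM of them, 80.9 with 257, 85.2 with 1306 and 91.4 with 5621. In NL skin the order was the reverse, with 134 CPM of *Zfand3* at 20790 and 128 at 24800. WT skin did not keep it either, with 145 at 20620, 165 at 26950 and 148 at 29640. The part of muscle in the lower level of *Zfand3* was not tested.

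*Dnah8* was low in WT and NL skin and higher in L skin. Its counts were 50, 49 and 92 in WT (1.14, 1.16 and 2.28 CPM), 68 and 39 in NL (1.3 and 0.957 CPM) and 303, 206, 539 and 758 in L skin (5.52, 5.08, 11.9 and 13.7 CPM). L skin had 7.97 times the NL level (log2 fold change 2.99, SE 0.56, 95% interval 1.73 to 4.26, adjusted p = 0.0067 from edgeR), and 5.92 times the WT level (2.57, SE 0.46). NL and WT skin overlapped. The T cell marker sum was 21.5 to 45.3 CPM in L, 31.1 and 44.3 in NL and 26.3 to 35.9 CPM in WT skin, and that of B cells was at most 2.99 CPM in all 9. Of the 5 T cell markers, 2 passed the test against WT skin with more in L skin, *Trac* of the T cell receptor (log2 fold change 3.53, SE 0.71, adjusted p = 0.00455, with 1.53 to 3.28 CPM in L and 0.0237 to 0.42 CPM in WT) and the adhesion receptor *Cd2* (1.25, SE 0.41, adjusted p = 0.0342), and 0 passed between L and NL skin. Of the 5 germ or ciliated cell markers, which summed to at most 1.58 CPM, *Foxj1*, a transcription factor of motile cilia, was higher in L than in NL (adjusted p = 0.0111) and WT skin (adjusted p = 0.0069), at 38, 7, 23 and 55 counts in L replicates 4 to 7, 0 in both NL and 0 to 2 in the WT libraries. Among the L libraries both *Foxj1* and *Dnah8* were lowest in replicate 5 and highest in replicate 7. Replicates 4 and 6 were in opposite order, with 38 and 23 counts of *Foxj1* and 303 and 539 of *Dnah8*. *Ddx4*, a germ cell helicase, was lower in L than in WT skin (log2 fold change -3.15, SE 0.995, adjusted p = 0.0313). Marker sums of hair shaft were higher, and those of muscle and of fat (621 to 3040 against 3570 to 7820 CPM) lower, in every L library than in all other skin. Within L skin, hair shaft markers summed to 1036 CPM at 5.52 CPM of *Dnah8*, 3283 at 5.08, 2364 at 11.9 and 2946 at 13.7. The part of any of these cell types in the level of *Dnah8* was not tested. *Trac*, *Cd2*, *Foxj1* and *Ddx4* were named after their values were seen. Of the other dynein heavy chains, where 25% of all tested genes were called between L and NL skin and 43.1% between L and WT skin, 1 of 9 tested was higher in L than in NL skin, *Dnah10* (log2 fold change 2.13, SE 0.66, adjusted p = 0.0448), and 1 of 9 against WT, *Dnah14* (1.73, SE 0.44, adjusted p = 0.013), both under 0.8 CPM.

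*Btbd9* was at 29.2, 26.6 and 28.6 CPM in WT, 30.4 and 35.3 CPM in NL and 26.9, 25.1, 30.3 and 29.3 CPM in L skin. L libraries lay just below NL ones (log2 fold change -0.23, SE 0.12, 95% interval -0.50 to 0.03, adjusted p = 0.169 from edgeR) and overlapped WT ones (-0.01, SE 0.10). Between L and NL skin 2 of the 4 genes were called, *Dnah8* higher and *Zfand3* lower, where edgeR called 25% of all tested genes. With 2 NL libraries this rests on both. Without NL replicate 2 neither passed, with adjusted p = 0.0533 for *Dnah8* and 0.0505 for *Zfand3*, and without NL replicate 3 *Zfand3* alone did. *Dnah8* was higher in every L than in every WT library, as were 26% of all tested genes. Between NL and WT skin edgeR called 0% of all genes, with 1465 at an unadjusted p under 0.05 and 80 called by DESeq2.

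Around the 4 genes, 18 of 44 neighbours (40.9%) passed between L and WT skin, close to the 43.1% of all genes, 15 higher and 3 lower in L skin. The lower ones were *Pi16*, a peptidase inhibitor (log2 fold change -1.65, SE 0.28, adjusted p = 0.00212), *Ndufv3*, a subunit of respiratory complex I (-0.79, SE 0.10, adjusted p = 0.000519), and *BC004004* (-0.33, SE 0.09, adjusted p = 0.0163). Among the higher ones *Ubash3a*, a regulator of T cell receptor signalling, went from 0.095 to 0.16 CPM in WT to 0.937 to 2.56 CPM in L skin (3.76, SE 0.60, adjusted p = 0.00146). *Mdga1*, a membrane-anchored adhesion protein and the nearest gene with signal below *Zfand3*, rose by 1.54 (SE 0.35, adjusted p = 0.00796). *Abcg1*, a sterol transporter and the nearest tested gene above *Dnah8*, rose by 0.96 (SE 0.14, adjusted p = 0.000838). *Gm50017*, between *Mdga1* and *Zfand3*, was at most 0.273 CPM. The others that rose were *Srsf3* and *U2af1* of RNA splicing, *Cdkn1a* and *Pim1* of the cell cycle and survival, and *Rab44*, *Cpne5*, *Ppil1*, *Fgd2*, *Tbc1d22b*, *Pde9a* and *Wdr4*, with log2 fold changes from 0.44 to 1.47. *1700097N02Rik*, across the overlap of *Glo1* and *Dnah8*, was the last. It had 0 to 1 count in the WT, 0 and 3 in the NL and 4 to 34 in the L libraries (adjusted p = 0.0115 from edgeR). Without strand its reads and those of *Dnah8* cannot be told apart there. Of the 44 neighbours, 12 (27.3%) passed between L and NL skin, 9 higher and 3 lower, and 0 between NL and WT skin, where 2 had an unadjusted p under 0.05 and DESeq2 called 0.

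The other genes of the glyoxalase route were tested between genotypes in nodes, where edgeR called 0% of all 16173 genes without UVB and 0% after it, so that counts of 0 are the background. *Hagh* was at 12.3 to 15 CPM in WT and 12.6 to 13.1 CPM in TG nodes without UVB (log2 fold change -0.07, SE 0.12, adjusted p = 1 from edgeR) and 0.22 apart after UVB (SE 0.12, adjusted p = 0.742). *Park7*, which is linked to methylglyoxal detoxification, differed by 0.00 without UVB (adjusted p = 1) and 0.21 after it (adjusted p = 0.735), and *Nfe2l2*, the transcription factor Nrf2, by -0.08 (adjusted p = 1) and 0.01 (adjusted p = 0.975). Of 19 tested genes of glyoxalase and methylglyoxal handling, 0 were called in either comparison, with 2 and 4 at an unadjusted p under 0.05, where 3.39% and 6.99% of all genes were, and medians of 0.00 and 0.20 beside 0.00 and 0.01 over all genes. The 9 genes of glutathione supply (medians 0.02 and 0.15), the 9 of the Nrf2 pathway (0.12 and 0.37), the 6 of the *Zfand* family (-0.02 and -0.13), the 12 of the *Btbd* family with *Cul3* (-0.03 and -0.03) and the 5 tested dynein heavy chains (0.29 and -0.45) held 0 calls as well.

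A few genes of these lists passed the test for UVB in WT nodes, where 4.98% of all genes did. *Park7* fell from 107 to 136 CPM to 80.9 to 95.9 CPM (log2 fold change -0.44, SE 0.11, adjusted p = 0.044 from edgeR). *Ager*, the receptor for advanced glycation end products, rose by 2.05 (SE 0.45, adjusted p = 0.0318), and these were the 2 calls among the 19 glyoxalase genes, whose median was -0.29 beside 0.00 over all genes. In the Nrf2 pathway *Gstm1*, a glutathione S-transferase, fell by 1.16 (SE 0.24, adjusted p = 0.028) and *Mafg*, a partner of Nrf2, rose by 0.56 (SE 0.12, adjusted p = 0.0319). *Btbd10* rose by 0.66 (SE 0.13, adjusted p = 0.0254). With 1 library left out, the calls over all genes in this comparison ranged from 0, without WT replicate 8 after UVB, to 2644, without TG replicate 12 after UVB, so the calls on the lists depend on single libraries. At an unadjusted p under 0.05, where 26.3% of all genes were, there were 11 of the 19 glyoxalase genes, 2 of 9 of glutathione supply, 2 of 9 of the Nrf2 pathway, 2 of 5 dyneins, 1 of 6 *Zfand* genes and 4 of 12 of the *Btbd* list. The glutathione, *Zfand* and dynein lists had 0 calls. In TG nodes and for the difference between genotypes no list held a call, with at most 5 genes of a list at an unadjusted p under 0.05, beside 9.32% and 5.45% of all genes.

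In L skin *Hagh* was at 37.4 to 45.1 CPM in L, 40.9 and 44.9 in NL and 41.4 to 51.2 CPM in WT skin (L against NL -0.05, adjusted p = 0.788), and *Nfe2l2* differed by -0.07 (adjusted p = 0.752). Of 20 tested glyoxalase and methylglyoxal genes, 5 fell between NL and L skin and 0 rose, where 25% of all genes were called in either direction, with a median of -0.13 beside 0.03 over all genes. They were *Aldh1a1* (log2 fold change -2.37, adjusted p = 0.0291), *Tpi1*, the triose phosphate isomerase of glycolysis (-1.06, adjusted p = 0.0102), *Akr1b10*, an aldo-keto reductase (-0.92, adjusted p = 0.0135), *Aldh2*, the mitochondrial aldehyde dehydrogenase (-0.73, adjusted p = 0.0203), and *Park7* (-0.53, adjusted p = 0.0342). Against WT skin 9 fell and 1, *Lgals3*, rose, where 43.1% of all genes were called. Of 10 tested genes of glutathione supply, 6 rose and 0 fell between NL and L skin, with a median of 0.98, and 7 rose and 0 fell against WT skin.

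Both subunits of the enzyme that starts glutathione synthesis were among them. *Gclc* was at 22.6 and 25.5 CPM in NL and 30.9 to 58.7 CPM in L skin (log2 fold change 0.98, SE 0.24, adjusted p = 0.0191), and *Gclm* at 32 and 34.5 against 51.8 to 75.2 CPM (0.99, SE 0.16, adjusted p = 0.00354). *Slc7a11*, the cystine importer, went from 0.319 and 0.554 to 8.15 to 18 CPM (4.79, SE 0.49, adjusted p = 0.000784), and *Ggt1*, which breaks down glutathione outside the cell, from 0.0765 and 0.147 to 14.2 to 34 CPM (7.66, SE 0.78, adjusted p = 0.000907). *Chac1*, which degrades glutathione inside the cell, rose as well (3.75, SE 0.56, adjusted p = 0.00346), so the list held genes of both synthesis and breakdown. In the Nrf2 pathway 2 of 10 rose (*Gpx2* and *Srxn1*) and 2 fell (*Gstm1* and *Gsta4*). Of the families of the other members, *Zfand6* rose (0.76, SE 0.15, adjusted p = 0.00823) as *Zfand3* fell, and among 10 tested *Btbd* genes and *Cul3*, *Btbd19* rose while *Btbd1*, *Btbd2* and *Btbd8* fell. Hair shaft and muscle marker sums moved with all of these in the same libraries, and their part was not tested.

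**Figure D5:**
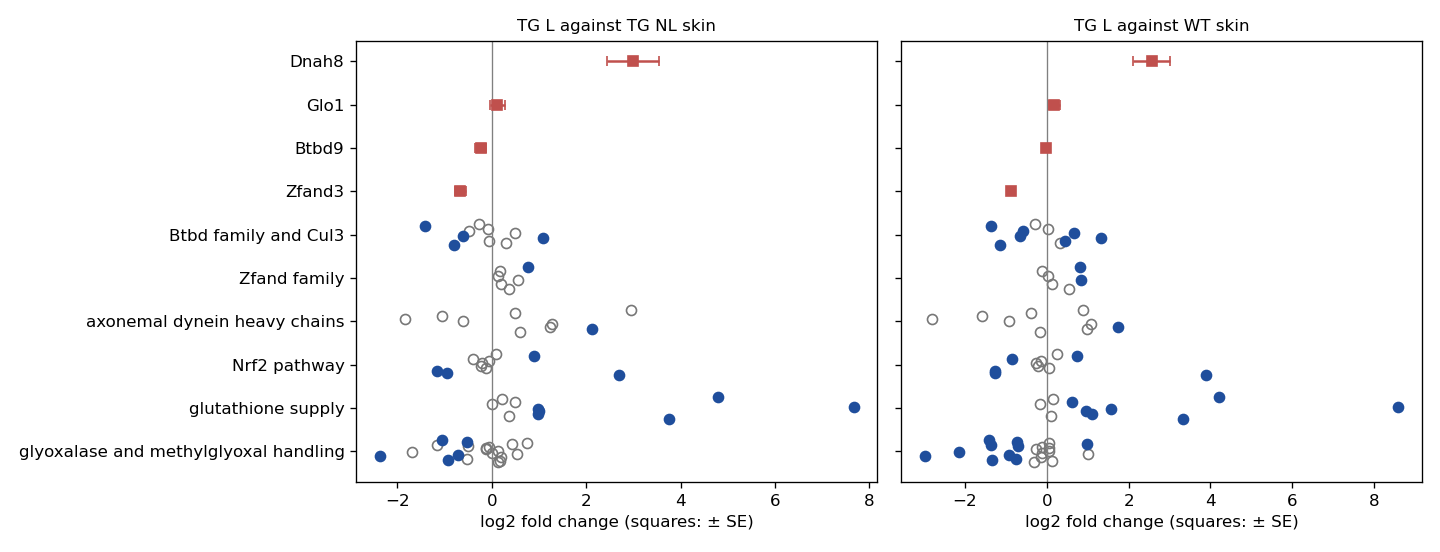
Log2 fold change (horizontal axis) in L against NL skin and in L against WT skin for the genes of 6 lists (circles, filled where the adjusted p was under 0.05) and for the 4 genes of the stretch (squares with SE). *Glo1* and *Btbd9* lie near 0, *Zfand3* at -0.66 and -0.89 and *Dnah8* at 2.99 and 2.57, and the filled circles of glutathione supply are all above 0.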

How the data were processed

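Poly-A RNA was sequenced in 12 inguinal lymph node and 9 skin libraries. The authors trimmed paired reads with cutadapt 4.8, aligned them to GRCm38 with STAR 2.7.8a and estimated gene counts with RSEM 1.3.3, per the submitters' processing notes, and deposited these expected counts as whole numbers without normalization. The annotation release and the strand setting of the counting are not given in the sources used here. Groups were taken from the labels. The 4 reporter sequences listed beside the genes had 0 counts and were dropped.

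Counts were analysed in R 4.3.3 with edgeR 4.0.16 (filterByExpr by group, TMM, robust quasi-likelihood fit of all libraries of a tissue, F-test). SEs come from the F statistic, and adjusted p is Benjamini-Hochberg over all tested genes of a comparison at a threshold of 0.05. The steps were tested on simulated data. DESeq2 1.42.0, other scalings, filters and fits, and each library left out were the alternatives. The genes and lists were chosen with earlier results of these data known. Genes named are the 4 chosen, neighbours within 1 Mb that passed in a comparison of TG with WT and the nearest tested gene on each side, the 5 genes most correlated with *Glo1* in each tissue, and *Hagh*, *Park7*, *Nfe2l2* and up to 4 called genes of a list and comparison by size, with exceptions marked or given as members of a pair. Positions come from GENCODE M21 and promoters from RefSeq (GRCm38.p6), where 3 of the 4 genes matched.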

Additional observations from a re-analysis of the deposited data

How the results depend on the processing

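EdgeR with other scalings, filters or groups left the number of the 4 genes called as reported, apart from 1 gene, *Dnah8*, for UVB in WT nodes when only the compared groups were fitted. DESeq2 called 1, *Glo1*, between TG and WT nodes both without and after UVB. Nothing is read from this call, since *Glo1* was chosen on that contrast in these same libraries. With a library left out, the number was 0 to 1 for UVB in WT nodes and 0 to 1 in TG nodes. With every library in, 4.98% and 0% of all tested genes were called there. Between L and NL skin, where 25% were called, the number depended on both NL libraries, as given above. In L against WT skin *Glo1* had a log2 fold change of 0.29 without L replicate 7, given as a description. Counting *Glo1* and *Glo1-ps* as 1 gene, chosen after seeing the data, gave log2 fold changes of 0.43 and 0.46 between TG and WT nodes without and after UVB. For *Glo1* alone, leaving out a library gave 0.38 to 0.48 without and 0.38 to 0.49 after UVB.

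Small differences changed sign when a library was left out. For UVB, *Zfand3* ranged from -0.11 to 0.065 in WT and from -0.082 to 0.12 in TG nodes. For the difference of the UVB responses the ranges were -0.036 to 0.16 for *Zfand3*, -0.052 to 0.081 for *Glo1* and -0.34 to 0.17 for *Dnah8*. Between TG and WT nodes without UVB they were -0.059 to 0.064 for *Zfand3* and -0.12 to 0.00066 for *Btbd9*, and after UVB -0.024 to 0.17 for *Zfand3* and -0.45 to 0.067 for *Dnah8*. *Btbd9* in L against WT skin ranged from -0.064 to 0.036. The causes were not tested.

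No paired analysis was possible because the replicate numbers count the libraries of a tissue and no number is shared by groups of the same tissue. Leaving out an NL library leaves 1, which is then assumed to vary like the other groups. The small number of libraries, 2 to 4 a group, limits the precision of each difference.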
